A study of Mus musculus with 69 samples.

Results

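The comparison asked whether loss of Fmr1 changed ribosome-bound mRNA differently in parvalbumin (PV) interneurons and in Camk2a neurons of mouse primary visual cortex (V1). It used every V1 library of the study, 34 of 69, taken by the area and class in the labels and by no measured value. The mice were young adults aged 70 to 100 days and carried the RiboTag allele Rpl22HA/HA, in which Cre adds an HA tag to a ribosomal protein, so that immunoprecipitation recovers mRNA on ribosomes of the Cre class. With PV-Cre there were 10 Fmr1 KO libraries (5 female, 5 male) and 10 WT libraries (5 female, 5 male). With Camk2a-Cre there were 6 Fmr1 KO libraries (4 female, 2 male) and 8 WT libraries (6 female, 2 male). Every V1 library came from a different animal, and the PV and Camk2a animals were different mice. Totals were 33.75 to 49.11 M estimated counts. Each class is as broad as its Cre driver, WT mice carry the tag and Cre as well, and precipitates keep some RNA of other cells. Whether KO females carried the mutation on both X chromosomes was not given in the labels.

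FMRP, the product of Fmr1, is an RNA-binding protein that sits on many neuronal mRNAs and is best known for holding back their translation. Its loss in humans causes fragile X syndrome. PV interneurons are fast-spiking cells that inhibit the soma and proximal dendrites of their targets, whereas the Camk2a promoter is active chiefly in cortical pyramidal cells, which excite their targets, so unequal changes in these classes bear on the balance of inhibition and excitation.

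Fmr1 followed the genotype labels in every library. In PV ribosomes its lowest, median and highest levels were 7.92, 10.7 and 16 CPM (counts scaled to a common library total) in KO, against 38.6, 47 and 48.8 CPM in WT. In Camk2a ribosomes they were 6.38, 8.36 and 9.79 CPM in KO, against 70.7, 79.9 and 91.3 CPM in WT. KO and WT did not overlap in either class, the KO levels of the classes lay close together, and WT Camk2a libraries held more Fmr1 mRNA than WT PV libraries. The KO minus WT log2 difference was -2.05 (SE 0.0925) in PV and -3.32 (SE 0.122) in Camk2a. Its PV effect minus its Camk2a effect was therefore 1.27 (SE 0.142, adjusted p = 3.2e-06, edgeR).

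The class markers Pvalb and Slc17a7 followed the Cre lines. Pvalb, the calcium buffer that names PV cells, lay at 322 to 574 CPM in KO and 161 to 707 CPM in WT PV libraries. Slc17a7, the vesicular glutamate transporter of cortical pyramidal cells, lay at 2144 to 2552 CPM in KO and 2146 to 2596 CPM in WT Camk2a libraries. In PV libraries it reached 276 CPM in KO and 351 CPM in WT. Camk2a mRNA lay at 694 to 1296 CPM in KO and 711 to 1438 CPM in WT PV libraries. In Camk2a libraries it lay at 5085 to 6622 CPM in KO and 5369 to 6785 CPM in WT. Markers of other interneurons summed to 824 to 1186 CPM in KO and 1041 to 1420 CPM in WT Camk2a libraries. Their PV sums were lower, at 237 to 352 CPM in KO and 229 to 310 CPM in WT. The Camk2a libraries C3 (KO), C18 and C19 (both WT) were rich in PV markers, with 18.8, 62.1 and 54.2 CPM of Pvalb, against 1.80 to 6.78 CPM in the other Camk2a libraries. On a score of 50 genes high and 50 genes low in V1 relative to S1, the somatosensory area, the PV libraries P9 and P24 (KO) and P22 (WT) stood at -2.06, -2.02 and -2.56. These genes were picked from the WT PV libraries of these data, P22 included. The separation of the WT areas on the score was therefore partly fixed in advance. The other PV V1 libraries lay between -1.11 and 0.02, and PV S1 libraries between -2.52 and -1.06. Y-linked counts went against the labelled sex in 3 V1 libraries, P11 (PV KO), C16 and C23 (both Camk2a WT). The V1 tests were refitted without each of these sets, while the correlation of effects and the values by transcript length and GC content use all libraries. In such bulk libraries, fewer cells of a type and less RNA per cell cannot be told apart.

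The genotype effect differed between the classes for 16 of 17319 genes tested (0.0924%), at an adjusted p under 0.05. The difference used throughout is the log2 KO minus WT effect in PV minus that in Camk2a. It was above 0 for 13 genes (0.0751%) and below 0 for 3 (0.0173%), and 1538 genes had an unadjusted p under 0.05. For all 16 genes the Camk2a effect was the larger in size, and it passed the test on its own. It was also the larger for 11022 of all 17319 genes, with a median absolute effect of 0.13 in Camk2a and 0.08 in PV. Fmr1 alone also had a PV effect that passed. Of the other 15, 12 fell in KO Camk2a ribosomes, 3 rose there, and none passed in PV, with a median absolute log2 effect of 0.08 in PV and 0.52 in Camk2a. For 10 of the 15 the fitted effects had opposite signs, against 7247 of all 17319 genes. Selecting genes by a large difference favours both patterns. Such selection also favours Camk2a groups that do not overlap, as given for single genes below. The share of all genes without overlap was not counted. None of these PV effects passed the test, so no gene was called in opposite directions in the classes.

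**Figure D1:**
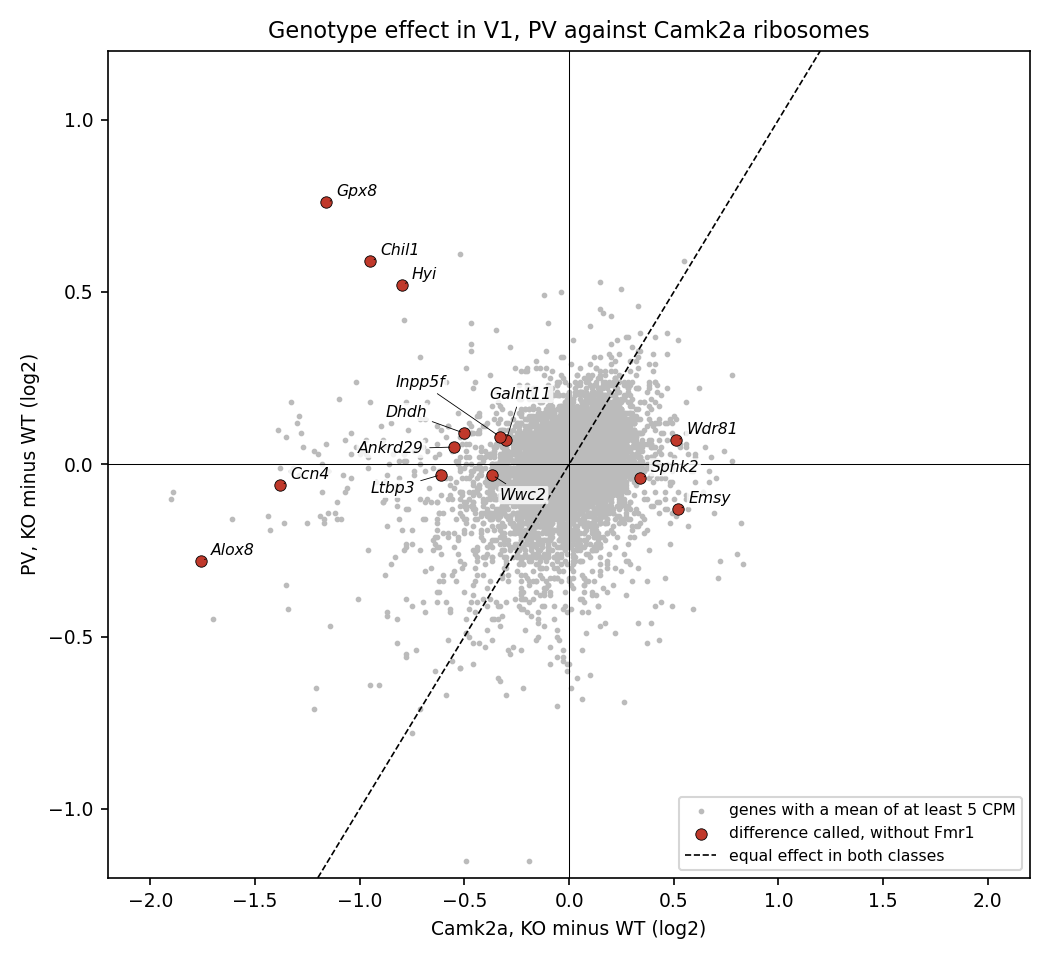
KO minus WT log2 effect in V1, Camk2a ribosomes on the x axis and PV ribosomes on the y axis, with a dashed line of equal effect. Grey points are genes with a mean of at least 5 CPM, 4 of which lie outside the axes, and red points are 14 genes other than Fmr1 whose effects differed. Red points spread along the Camk2a axis and, apart from Gpx8, Chil1, Hyi and Alox8, lie near 0 on the PV axis.

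Secreted and matrix-linked products were among the genes that fell in KO Camk2a ribosomes. Ccn4 (ENSMUSG00000005124, chromosome 15) encodes a matricellular protein of the Wnt pathway. Its lowest, median and highest levels were 5.34, 6.3 and 8.08 CPM in KO PV libraries, against 6.05, 6.67 and 7.3 CPM in WT PV libraries. In Camk2a libraries they were 1.44, 2.64 and 4.54 CPM in KO, against 4.85, 6.64 and 8.6 CPM in WT. Every KO Camk2a library lay below every WT one, while the PV groups overlapped. The difference was 1.31 (SE 0.227, adjusted p = 0.00723), from -0.06 in PV and -1.38 in Camk2a. Ltbp3, which holds latent TGF-beta in the matrix, showed the same shape at a higher level. It lay at 62.5, 67.1 and 75.1 CPM in KO and 49.8, 71.4 and 72.3 CPM in WT PV libraries. In Camk2a it lay at 14.7, 15.4 and 16.9 CPM in KO, against 18, 23.1 and 30.1 CPM in WT, again without overlap. Its difference was 0.58 (SE 0.103, adjusted p = 0.00723), and 0.52 (adjusted p = 0.0328) without C3, C18 and C19. Of the WT Camk2a libraries, C19 and C18 held the most Ltbp3 mRNA. Chil1, a secreted chitinase-like glycoprotein, was rare, with medians of 0.819 CPM in KO and 0.599 CPM in WT PV libraries, and of 0.414 CPM in KO and 0.842 CPM in WT Camk2a libraries. Its groups overlapped in both classes, and the difference was 1.55 (SE 0.323, adjusted p = 0.0394). It passed in 14 of 34 fits with a library left out (adjusted p up to 0.107). The Chil1 call was lost without C3, C18 and C19 (adjusted p = 0.0825) or without P11, C16 and C23 (0.123).

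Enzymes made up another group. Alox8 (ENSMUSG00000020891, chromosome 11), a lipoxygenase acting on arachidonic acid, had the largest difference among genes with a mean of at least 5 CPM. PV libraries held 13.5, 19 and 23.7 CPM in KO, against 13.5, 23.5 and 25.7 CPM in WT. Camk2a libraries held 0.55, 0.986 and 1.44 CPM in KO, against 2.03, 2.96 and 5.27 CPM in WT. KO and WT overlapped in PV and did not in Camk2a, where C18 and C19 were the highest WT libraries. The difference was 1.48 (SE 0.257, adjusted p = 0.00723), and 1.36 (adjusted p = 0.00593) without C3, C18 and C19. Hyi is named for a hydroxypyruvate isomerase, and the GENCODE M21 annotation lists it as a polymorphic pseudogene. It lay at 4.57, 7.23 and 10.8 CPM in KO and 3.87, 5.26 and 6.68 CPM in WT PV libraries, and at 1.39, 2.36 and 3.14 CPM in KO and 2.59, 3.95 and 5.09 CPM in WT Camk2a libraries. It was above the WT mean in 8 of 10 KO PV libraries and below it in 6 of 6 KO Camk2a libraries. The difference was 1.32 (SE 0.251, adjusted p = 0.021), from 0.52 in PV (adjusted p = 0.217) and -0.80 in Camk2a (adjusted p = 0.0219). The Hyi call was lost without C3, C18 and C19 (adjusted p = 0.0516) or without P11, C16 and C23 (0.0561).

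Dhdh, a dihydrodiol dehydrogenase, lay at 11.8, 13.6 and 17.2 CPM in KO and 11.3, 12.5 and 15.1 CPM in WT PV libraries. Camk2a libraries held 6.78, 8.68 and 9.72 CPM in KO, against 8.67, 12.3 and 13.2 CPM in WT. The groups overlapped in both classes, although all 6 KO Camk2a libraries were below the WT mean, and the difference was 0.59 (SE 0.121, adjusted p = 0.0324). Refits without C3, C18 and C19 (adjusted p = 0.147) or without P11, C16 and C23 (0.123) did not keep the call. Galnt11, an enzyme that starts O-linked glycosylation, had a small and tight difference of 0.36 (SE 0.0617, adjusted p = 0.00723). It lay at 37.6, 39.8 and 43.1 CPM in KO and 34.5, 37.1 and 42.4 CPM in WT PV libraries, and at 30.8, 34.4 and 38.7 CPM in KO and 39.5, 41.7 and 43.9 CPM in WT Camk2a libraries. All 10 KO PV libraries were above the WT mean, and the Camk2a groups did not overlap. Gpx8, a glutathione peroxidase of the endoplasmic reticulum, was near the detection floor, with medians of 0.728 CPM in KO and 0.434 CPM in WT PV libraries, and of 0.198 CPM in KO and 0.42 CPM in WT Camk2a libraries. Its difference was 1.92 (SE 0.373, adjusted p = 0.021). The Gpx8 call was lost without C3, C18 and C19 (adjusted p = 0.0978) or without P11, C16 and C23 (0.116).

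Inpp5f, Wwc2 and Ankrd29 also lay above 0. Inpp5f, a phosphoinositide phosphatase of endosomes, lay at 204, 224 and 252 CPM in KO and 188, 209 and 232 CPM in WT PV libraries, and at 54.2, 62.4 and 64.8 CPM in KO and 66.9, 76.9 and 86.5 CPM in WT Camk2a libraries. KO Camk2a libraries were all below the WT ones, and the difference was 0.42 (SE 0.0808, adjusted p = 0.021). C18 and C19 were the highest WT Camk2a libraries, and without C3, C18 and C19 the call was lost (adjusted p = 0.113). Wwc2, a WW and C2 domain protein of the Hippo pathway, lay at 27.6, 31.6 and 35.1 CPM in KO and 28.4, 31.9 and 35.2 CPM in WT PV libraries. In Camk2a it lay at 40.7, 46.4 and 48.6 CPM in KO, against 54.3, 56.5 and 63.2 CPM in WT, without overlap. Its difference was 0.34 (SE 0.065, adjusted p = 0.021). The Wwc2 call was lost without C3, C18 and C19 (adjusted p = 0.0516) or without P11, C16 and C23 (0.077). Ankrd29, an ankyrin repeat gene, lay at 79.3, 85.6 and 99 CPM in KO and 70.5, 83.6 and 89.9 CPM in WT PV libraries. Camk2a libraries held 8.29, 9.76 and 11.2 CPM in KO, against 11.1, 12.4 and 19.1 CPM in WT, overlapping at 1 KO library. Its difference was 0.60 (SE 0.127, adjusted p = 0.0454), and 0.54 (adjusted p = 0.141) without C3, C18 and C19. It passed in 14 of 34 fits with a library left out (adjusted p up to 0.121).

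Genes with a difference below 0 were Emsy, Wdr81 and Sphk2, and each rose in KO Camk2a ribosomes. Emsy, a transcriptional repressor that binds BRCA2, lay at 81.4, 85.8 and 109 CPM in KO and 78.7, 99 and 123 CPM in WT PV libraries. Camk2a libraries held 56.7, 81.8 and 94.7 CPM in KO, against 49.9, 53.7 and 57.4 CPM in WT, and 5 of the 6 KO libraries were above every WT library. KO C5 (59.7 CPM) and KO C6 (56.7 CPM) lay close to the highest WT level. The difference was -0.64 (SE 0.129, adjusted p = 0.0257), from -0.13 in PV and 0.52 in Camk2a. It did not pass without C3, C18 and C19 (adjusted p = 0.147) or without P11, C16 and C23 (adjusted p = 0.135). Wdr81, a BEACH domain protein of endosomes, lay at 21.8, 24.7 and 27.8 CPM in KO and 19.2, 23.5 and 27.2 CPM in WT PV libraries, and at 26.7, 29.9 and 33.1 CPM in KO and 16.6, 21.6 and 24.6 CPM in WT Camk2a libraries. Here the Camk2a groups were separate and the PV groups overlapped. The difference was -0.45 (SE 0.0954, adjusted p = 0.0475). It passed in 10 of 34 fits with a library left out (adjusted p up to 0.149), and not without the sex term (0.0516), without P11, C16 and C23 (0.226) or without C3, C18 and C19 (0.0669). Sphk2, a sphingosine kinase, lay at 35.8, 38.3 and 42.8 CPM in KO and 33.3, 39.3 and 42.9 CPM in WT PV libraries. In Camk2a it lay at 36.6, 39 and 44 CPM in KO, against 27.2, 31.3 and 32.2 CPM in WT, also without overlap. The difference was -0.38 (SE 0.0781, adjusted p = 0.0329). It did not pass without the sex term (adjusted p = 0.0542), without C3, C18 and C19 (0.174) or without P9, P22 and P24 (0.0577).

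**Figure D2:**
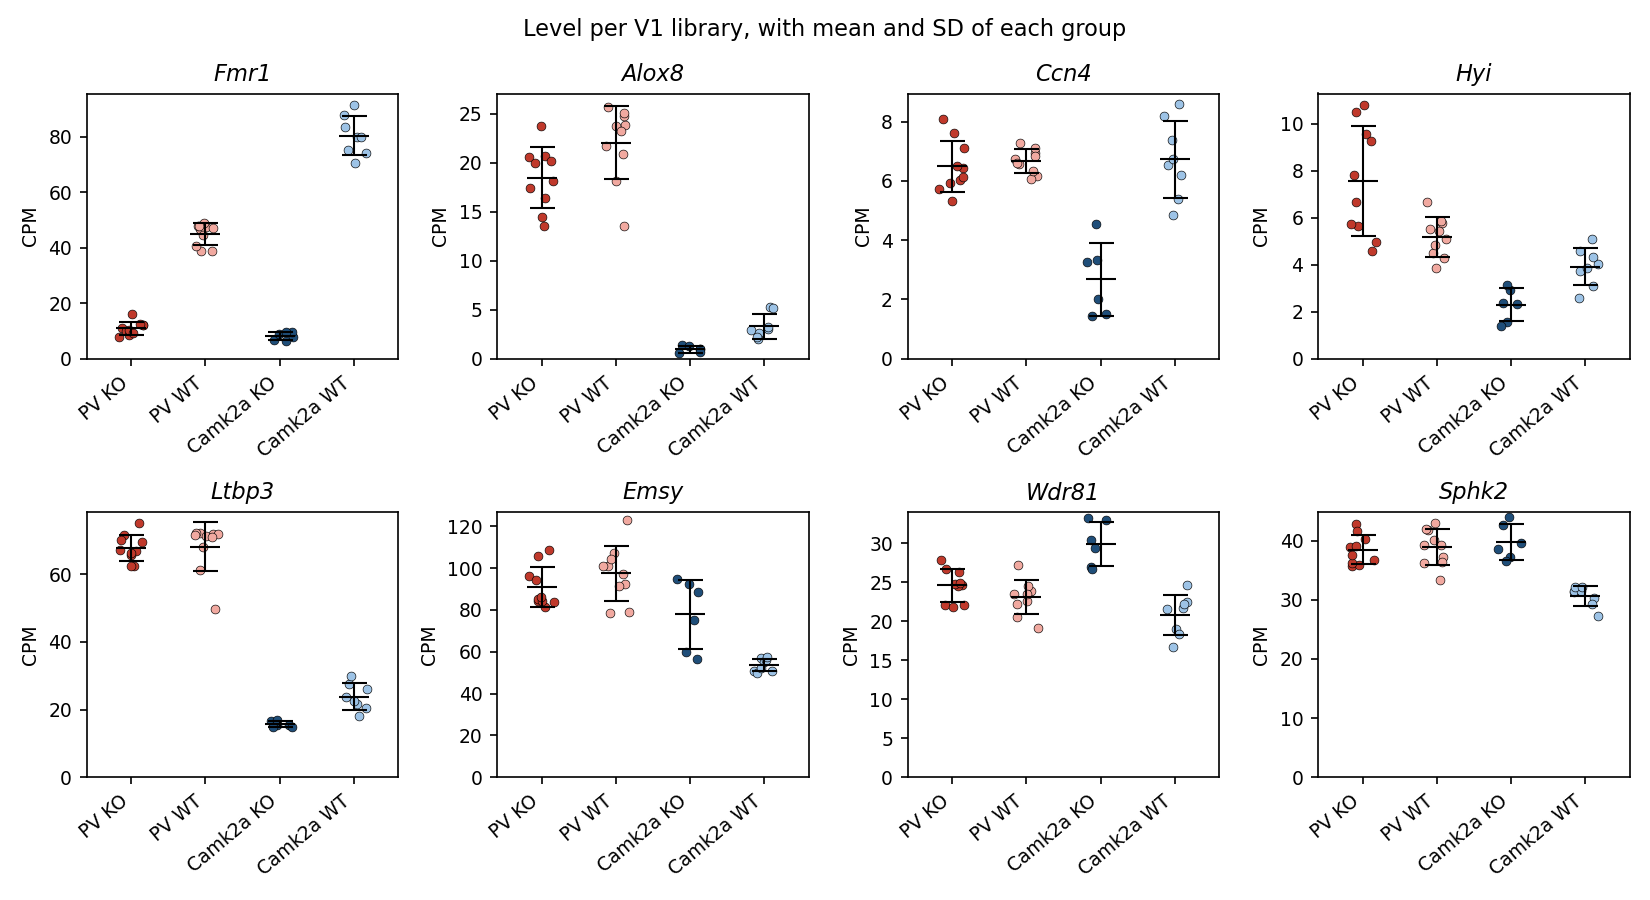
Level (CPM) of 8 genes in each V1 library, in PV KO, PV WT, Camk2a KO and Camk2a WT ribosomes. Points are libraries and bars are the mean and SD of 10, 10, 6 and 8 libraries. In the Camk2a pairs KO and WT stand apart for Fmr1, Alox8, Ccn4, Ltbp3, Wdr81 and Sphk2, and in the PV pairs they do so for Fmr1 only. The genes were picked by a called difference in these same libraries, which favours this pattern.

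The next genes by p in that direction, given as values because they did not pass with edgeR, were Pgm1, Sphkap and Btrc. Each passed with DESeq2 and with limma-voom, the other tools used below. None passed with edgeR without C3, C18 and C19 or without P11, C16 and C23. Pgm1, a phosphoglucomutase, had a difference of -0.53 (adjusted p = 0.0926), and Btrc, a ubiquitin ligase subunit, one of -0.33 (adjusted p = 0.0936). Sphkap, an anchor of protein kinase A, lay at 51.7, 76.4 and 119 CPM in KO and 60, 95.5 and 147 CPM in WT PV libraries, and at 114, 180 and 222 CPM in KO and 73.3, 95.2 and 130 CPM in WT Camk2a libraries. The Camk2a effect of 0.80 passed (adjusted p = 0.0167), and the difference of -1.06 (SE 0.244) did not (adjusted p = 0.0936). It passed without P9, P22 and P24 (-1.08, adjusted p = 0.0444). Rapgef4, which encodes the cAMP sensor EPAC2 named in the study's title, gave no difference that could be detected. It lay at 317, 349 and 385 CPM in KO and 288, 307 and 336 CPM in WT PV libraries, and at 204, 231 and 249 CPM in KO and 185, 199 and 249 CPM in WT Camk2a libraries. All KO libraries of each class were above the WT mean of that class, and the groups overlapped in both. Effects were 0.13 in PV (adjusted p = 0.403) and 0.14 in Camk2a (adjusted p = 0.183), neither of which passed, with a difference of -0.01 (SE 0.0748, adjusted p = 0.981).

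The promoters of the called genes are shown for Fmr1, for Alox8, with the largest difference at a mean of at least 5 CPM, and for Wdr81 and Sphk2, which went the other way. RefSeq promoters (GRCm38.p6) were matched for 11 of the 16 genes. Each line gives the 250 bases before the start site, 5′ to 3′ on the gene's strand, and capitals mark letters that a motif search found.
Fmr1, chrX:68678291-68678540, plus strand: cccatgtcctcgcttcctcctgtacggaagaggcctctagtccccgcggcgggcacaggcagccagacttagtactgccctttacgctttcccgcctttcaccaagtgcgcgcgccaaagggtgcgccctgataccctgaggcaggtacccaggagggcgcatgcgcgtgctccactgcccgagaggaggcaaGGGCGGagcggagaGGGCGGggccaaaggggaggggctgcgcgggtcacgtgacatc
Alox8, chr11:69197844-69198093, minus strand: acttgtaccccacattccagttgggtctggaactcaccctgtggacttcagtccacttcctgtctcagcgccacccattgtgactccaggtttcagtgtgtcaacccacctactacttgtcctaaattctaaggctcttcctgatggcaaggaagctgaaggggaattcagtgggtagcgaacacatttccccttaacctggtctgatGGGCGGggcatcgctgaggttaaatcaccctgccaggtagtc
Wdr81, chr11:75454718-75454967, minus strand: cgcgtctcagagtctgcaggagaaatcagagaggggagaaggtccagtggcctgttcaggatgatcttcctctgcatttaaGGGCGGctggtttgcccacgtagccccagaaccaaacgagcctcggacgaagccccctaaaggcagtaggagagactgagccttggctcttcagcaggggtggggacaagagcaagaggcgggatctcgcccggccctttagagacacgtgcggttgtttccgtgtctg
Sphk2, chr7:45718003-45718252, minus strand: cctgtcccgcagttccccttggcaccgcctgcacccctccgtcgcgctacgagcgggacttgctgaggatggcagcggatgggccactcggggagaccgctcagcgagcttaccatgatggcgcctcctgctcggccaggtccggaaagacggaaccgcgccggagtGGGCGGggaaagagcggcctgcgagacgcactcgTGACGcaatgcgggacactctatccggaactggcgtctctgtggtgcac
The motifs, searched on both strands, were the GC box GGGCGG, the TATA box TATAAA, the cAMP response half-site TGACG and the CCAAT box CCAAT, and none of these letter strings overlaps another in the stretches shown. GGGCGG was present in 8 of 11 matched promoters and in 32.9% of 27025 mouse promoters of the same length. TATAAA was present in 0 of 11 (13% of all), TGACG in 2 of 11 (17.9%) and CCAAT in 1 of 11 (34.5%). The median number of CG dinucleotides was 13 in the 11 promoters and 6 in all. These counts describe the letters in these windows and no binding. The 27025 promoters were not limited to the genes tested here, so they are no matched background for the 11.

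The genotype effects of the classes, which share no library, leaned the same way. In PV, 22 genes passed (0.127%), 3 higher (0.0173%) and 19 lower (0.11%) in KO, and 1386 had an unadjusted p under 0.05. In Camk2a, 486 genes passed (2.81%), 219 higher (1.26%) and 267 lower (1.54%) in KO. Of the 486, 379 (78.0%) had the same sign in PV, against 58.2% of all genes tested, with a median absolute effect of 0.08 in PV and 0.39 in Camk2a. Of the 22 PV genes, 20 had the same sign in Camk2a. Across 10709 genes with a mean of at least 5 CPM, without Fmr1, the effects correlated with a Pearson r of 0.23 and a Spearman rank correlation of 0.27, given as a description of genes that are not independent. The Camk2a count fell to 206 without KO library C7, 211 without KO C4, 256 without WT C16, 266 without KO C5 and 282 without WT C23, and reached 745 without KO C14. The PV count lay between 8 (without KO P10) and 14 on leaving out KO P6, P7, P12, P23 or P25 or WT P18, P20 or P21, and was 38 without WT P22.

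The genes that passed in both classes were 9, all with the same sign. Hrh2, the histamine H2 receptor, lay at 9.96, 12.9 and 14.9 CPM in KO and 13.8, 16.9 and 20.9 CPM in WT PV libraries, and at 9.07, 13.1 and 17.2 CPM in KO and 14.5, 18.8 and 22.3 CPM in WT Camk2a libraries. The groups overlapped in both classes, and it fell by 0.49 on the log2 scale in each. Zfpm1, a cofactor of GATA factors, also fell by 0.49 in each class. Arhgap35, a GTPase-activating protein, fell by 0.27 in PV and by 0.30 in Camk2a, Ubap2 fell by 0.24 and by 0.25, and Plekhm1, a lysosomal adaptor, fell by 0.28 and by 0.23. Irf4, an interferon regulatory factor at a mean of 0.638 CPM, fell by 1.33 and by 1.36. Atmin, a zinc finger transcription factor, lay at 99.6, 110 and 117 CPM in KO and 121, 133 and 157 CPM in WT PV libraries, and at 82.3, 98.9 and 113 CPM in KO and 131, 138 and 159 CPM in WT Camk2a libraries. KO and WT did not overlap in either class, and the difference was 0.24 (adjusted p = 0.423).

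Among those 9, Cd99l2, an X-linked gene for a membrane glycoprotein, had the widest excess of the PV effect over the Camk2a effect in absolute size. It lay at 109, 114 and 132 CPM in KO and 74.8, 80.6 and 84.5 CPM in WT PV libraries, and at 98.4, 107 and 108 CPM in KO and 79.8, 86.4 and 96.0 CPM in WT Camk2a libraries. KO was above WT without overlap in both classes. The effects were 0.51 in PV and 0.25 in Camk2a, and the difference of 0.27 (SE 0.0586) missed the threshold (adjusted p = 0.0618). Chrna4, a nicotinic receptor subunit, passed in PV only. It lay at 14.6, 17.0 and 20.9 CPM in KO and 18.5, 22.2 and 30.4 CPM in WT PV libraries, and at 50.8, 56.9 and 67.9 CPM in KO and 35.6, 53.2 and 66.8 CPM in WT Camk2a libraries. Its effects were -0.43 in PV and 0.09 in Camk2a, and the difference of -0.52 (SE 0.142) did not pass (adjusted p = 0.183). Colq, the collagen tail of acetylcholinesterase, had medians of 0.497 CPM in KO and 1.64 CPM in WT PV libraries, and of 0.992 CPM in KO and 0.98 CPM in WT Camk2a libraries. Its difference was -1.54 (adjusted p = 0.132). These 3 genes were chosen after their values were seen.

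All 16 genes also passed with DESeq2, which called 58, and with limma-voom, which called 69, and 23 further genes passed with both of these tools and not with edgeR. Of those, 8 had a difference above 0 and 15 below, 21 had the larger effect in Camk2a, and 18 passed in Camk2a with edgeR. Named after their values were seen, they included the plakophilin Pkp4 (0.40, edgeR adjusted p = 0.055), the microtubule-binding protein Clasp2 (0.28, 0.0872) and Scg5, a chaperone of prohormone convertase (0.40, 0.0732). Below 0 were the RNA-decay nuclease Smg6 (-0.58, 0.0936) and the RNA-editing enzyme Adar (-0.32, 0.123). Aldoc, an aldolase listed among astrocyte markers, had a difference of 0.65 (0.0732). It lay at 159, 166 and 193 CPM in KO and 155, 189 and 217 CPM in WT PV libraries, and at 29.6, 34.8 and 59.7 CPM in KO and 51.4, 65.9 and 75.8 CPM in WT Camk2a libraries. The summed astrocyte markers lay at 1175 to 1426 CPM in KO and 1160 to 1382 CPM in WT Camk2a libraries, and they overlapped.

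The 16 calls rested in part on single libraries. All 16 kept the sign of the difference in every refit made, which their selection in the same libraries favours. Fmr1, Alox8, Ccn4, Ltbp3 and Galnt11 passed in all 34 fits with a library left out, Hyi and Gpx8 in 33, Inpp5f and Wwc2 in 32, Emsy in 29, Sphk2 in 23 and Dhdh in 21. Without WT library P2 of PV the count was 7, without KO libraries C4 and C7 of Camk2a 8 and 10, and without WT C19 it was 10. Without KO C6 and KO C14 it was 29 and 32. Without C3, C18 and C19 it was 7, of which 5 were among the 16 (Fmr1, Alox8, Ccn4, Ltbp3 and Galnt11), and no gene was called below 0. Without P11, C16 and C23 it was 9, of which 8 were among the 16, and without P9, P22 and P24 it was 18, of which 13 were. With a PV-marker score in Camk2a and an excitatory score in PV as covariates it was 24, and with a glial score 49, and each included all 16.

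**Figure D3:**
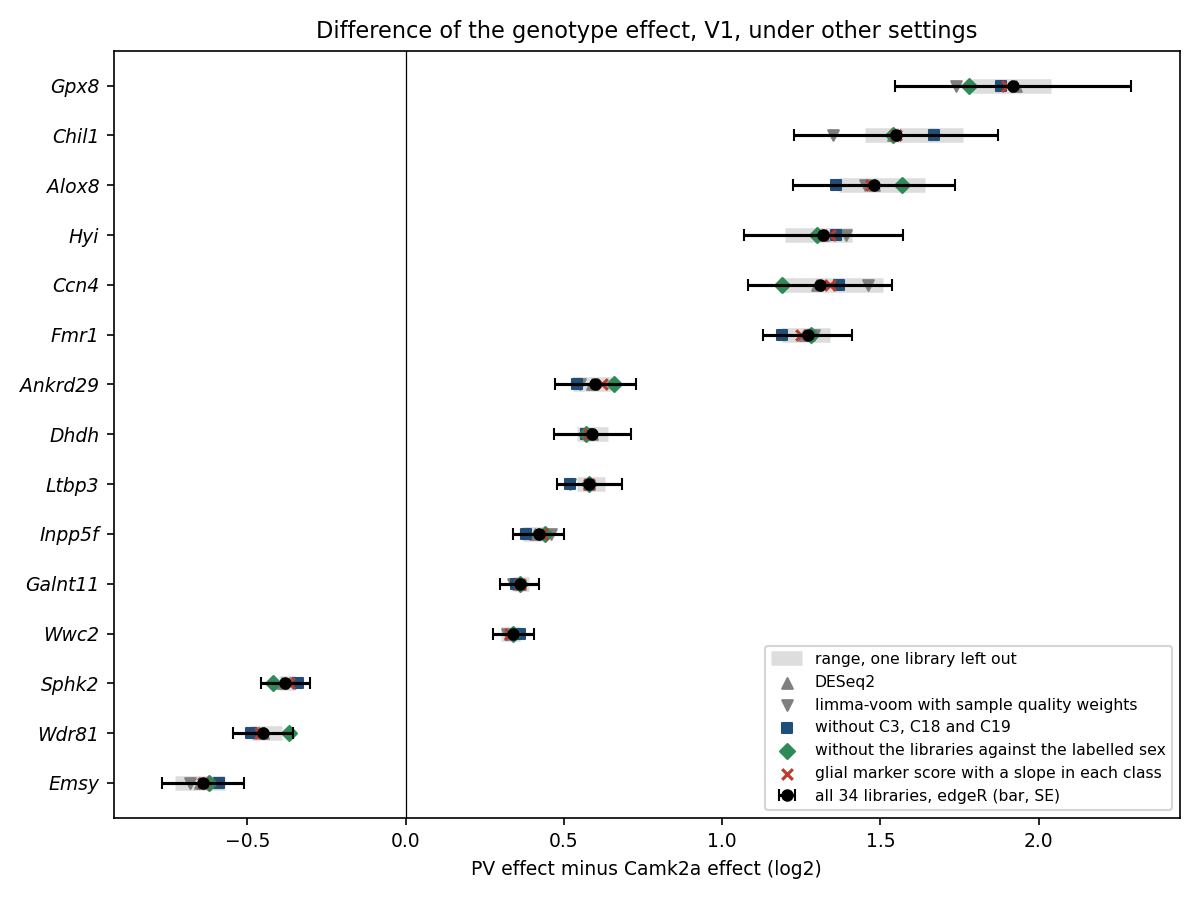
PV effect minus Camk2a effect (log2) of 15 of the called genes, with black points and SE bars from all 34 libraries. Grey bands span the values with each library left out in turn, and the other symbols are the refits named in the legend. Every symbol of a gene lies on the same side of 0, which selection of the genes in the same libraries favours.

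In S1 the same contrast passed for 143 of 17023 genes (0.84%). The S1 count was 78 without animals P9, P22 and P24, 14 without P11, C16 and C23, and 93 without C3, C18 and C19, refits chosen after seeing the data. With all animals, all 16 V1 genes had the same sign there, as did 10918 of 16992 genes tested in both areas. Among genes whose Camk2a effect passed in V1, 440 of 485 had the same sign of the difference in S1. Of the 16, 7 passed in S1, Fmr1, Galnt11, Ccn4, Alox8, Hyi, Emsy and Wdr81. V1 and S1 libraries came mostly from the same animals, so this is not an independent repeat. Alox8 gave 1.35 (adjusted p = 0.0155) and Ccn4 1.15 (adjusted p = 1.19e-05) in S1. Ankrd29 stood at 0.12 in S1 (adjusted p = 0.615). A direct test of V1 against S1 called 0 of 17434 genes (0%) with edgeR and 0 with limma-voom and the animal as a block. The edgeR fit ignored that most animals gave both libraries, and 689 genes had an unadjusted p under 0.05 in it. It also called 0 genes without each of those sets of animals. Ankrd29 had the smallest unadjusted p of that test among the 16, 0.00347, with a difference between areas of 0.50 (adjusted p = 1).

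No member of 27 gene lists passed the test of the difference with edgeR, and some lists leaned far to either side. Over all genes tested, 8608 were above 0 and 8711 below, with a median of 0.0. Among genes of cholesterol synthesis and its control, 20 of 23 were above 0, with a median difference of 0.19 from -0.01 in PV and -0.22 in Camk2a. None passed in PV and 6 of the 23 fell in Camk2a, against 1.54% of all genes tested. The 6 were Mvk, Idi1, Cyp51, Sc5d, Insig1 and Stard4. Stard4, a sterol carrier, lay at 3.74, 4.64 and 5.55 CPM in KO and 3.31, 4.25 and 5.48 CPM in WT PV libraries, and at 17.9, 20.2 and 25.2 CPM in KO and 22.3, 31.3 and 33.1 CPM in WT Camk2a libraries. The groups overlapped in both classes, with effects of 0.06 in PV and -0.49 in Camk2a and a difference of 0.56 (adjusted p = 0.147). Idi1, which isomerises isopentenyl diphosphate, had effects of 0.04 and -0.49 and a difference of 0.53 (adjusted p = 0.179). The list's median stayed between 0.15 and 0.24 with any library left out. Without C3, C18 and C19 it was 0.20, with 3 members lower in KO Camk2a, and without P11, C16 and C23 it was 0.17, with 0 members called in Camk2a.

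Gamma protocadherin genes, which encode neuronal cell-surface adhesion proteins, lay on the other side. Of 22, 21 were below 0, with a median difference of -0.27 from 0.04 in PV and 0.32 in Camk2a. In Camk2a, 6 of the 22 rose, against 1.26% of all genes tested. Pcdhga9 lay at 3.89, 5.13 and 6.85 CPM in KO and 3.71, 4.82 and 6.75 CPM in WT PV libraries, and at 19.8, 25.4 and 28.1 CPM in KO and 12.3, 15.0 and 19.1 CPM in WT Camk2a libraries. KO was above WT without overlap in Camk2a and overlapped it in PV, and the difference was -0.61 (adjusted p = 0.216). Pcdhga8, named after its values were seen, had a difference of -0.70 (adjusted p = 0.129) and passed with DESeq2 and limma-voom. These genes share constant exons, so their estimated counts are uncertain one by one. Without C3, C18 and C19, 19 of 22 were below 0 and 3 rose in Camk2a.

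Commonly cited FMRP target mRNAs were below 0 in 61 of 76, with a median difference of -0.12 from -0.03 in PV and 0.06 in Camk2a. In Camk2a, 2 of the 76 members rose and 1 fell, where 1.26% of all genes tested rose and 1.54% fell. Ank3, which builds the axon initial segment, and the mTOR partner Rptor rose by 0.44 and 0.30, while in PV they stood at 0.03 and 0.05. Without C3, C18 and C19, 1 member rose and 1 fell, and without P11, C16 and C23, 1 rose and 0 fell. Ank3 lay at 339, 497 and 599 CPM in KO and 393, 474 and 589 CPM in WT PV libraries, and at 306, 388 and 464 CPM in KO and 249, 267 and 384 CPM in WT Camk2a libraries, with overlap in both. Chromatin regulator genes were below 0 in 37 of 41, with a median difference of -0.13 from -0.03 in PV and 0.09 in Camk2a. The histone methyltransferases Setd2 (0.39) and Ehmt1 (0.25), 2 of the 41, rose in Camk2a, against 1.26% of all genes tested. They stood at -0.03 and 0.04 in PV. Neither call was kept without C3, C18 and C19 or without P11, C16 and C23, where 0 members rose. With any library left out, the median lay between -0.17 and -0.09 for FMRP targets and between -0.19 and -0.09 for chromatin regulators.

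Nuclear-encoded and mitochondrially encoded respiratory genes stood on opposite sides. Of 53 nuclear-encoded genes, 46 were above 0 (median 0.12, from 0.02 in PV and -0.10 in Camk2a). All 13 mitochondrially encoded genes were below 0 (median -0.53, from -0.57 in PV and -0.03 in Camk2a), and -0.45 without P9, P22 and P24. mt-Co2, a cytochrome oxidase subunit, lay at 1101, 1793 and 3010 CPM in KO and 1009, 3246 and 5019 CPM in WT PV libraries, and at 297, 337 and 403 CPM in KO and 238, 327 and 441 CPM in WT Camk2a libraries. It varied widely between PV libraries, overlapped in both classes, and its difference of -0.67 had a large SE of 0.369 (adjusted p = 0.63). As background, mitochondrial transcripts are translated by mitochondrial ribosomes, which carry no tag.

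Activity-regulated genes stood below 0 in KO relative to WT in 32 of 32 in PV (median -0.37) and 27 of 32 in Camk2a (median -0.47). No member passed in either class. The median difference was 0.10, and -0.05 without P11, C16 and C23. It reached 0.32 without KO library C14 of Camk2a, and was -0.01 without KO P5 or KO P6 of PV and -0.02 without WT C23 of Camk2a. PV interneuron markers were above 0 in 20 of 20, with a median difference of 0.97 from 0.02 in PV and -1.0 in Camk2a. The Camk2a libraries rich in these markers had a summed level of 1498 CPM in C3 (KO), and 2598 and 2646 CPM in C18 and C19 (WT). The sum lay between 854 and 1056 CPM in the other KO and between 1036 and 1275 CPM in the other WT Camk2a libraries. Without those 3 libraries the median was 0.10, with 15 of 20 above 0, and without C3 alone it was 1.86. Oligodendrocyte markers summed to 634 to 958 CPM in KO and 415 to 1125 CPM in WT PV libraries, and to 222 to 345 CPM in KO and 278 to 426 CPM in WT Camk2a libraries. Their list median was 0.13, with 9 of 15 above 0.

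**Figure D4:**
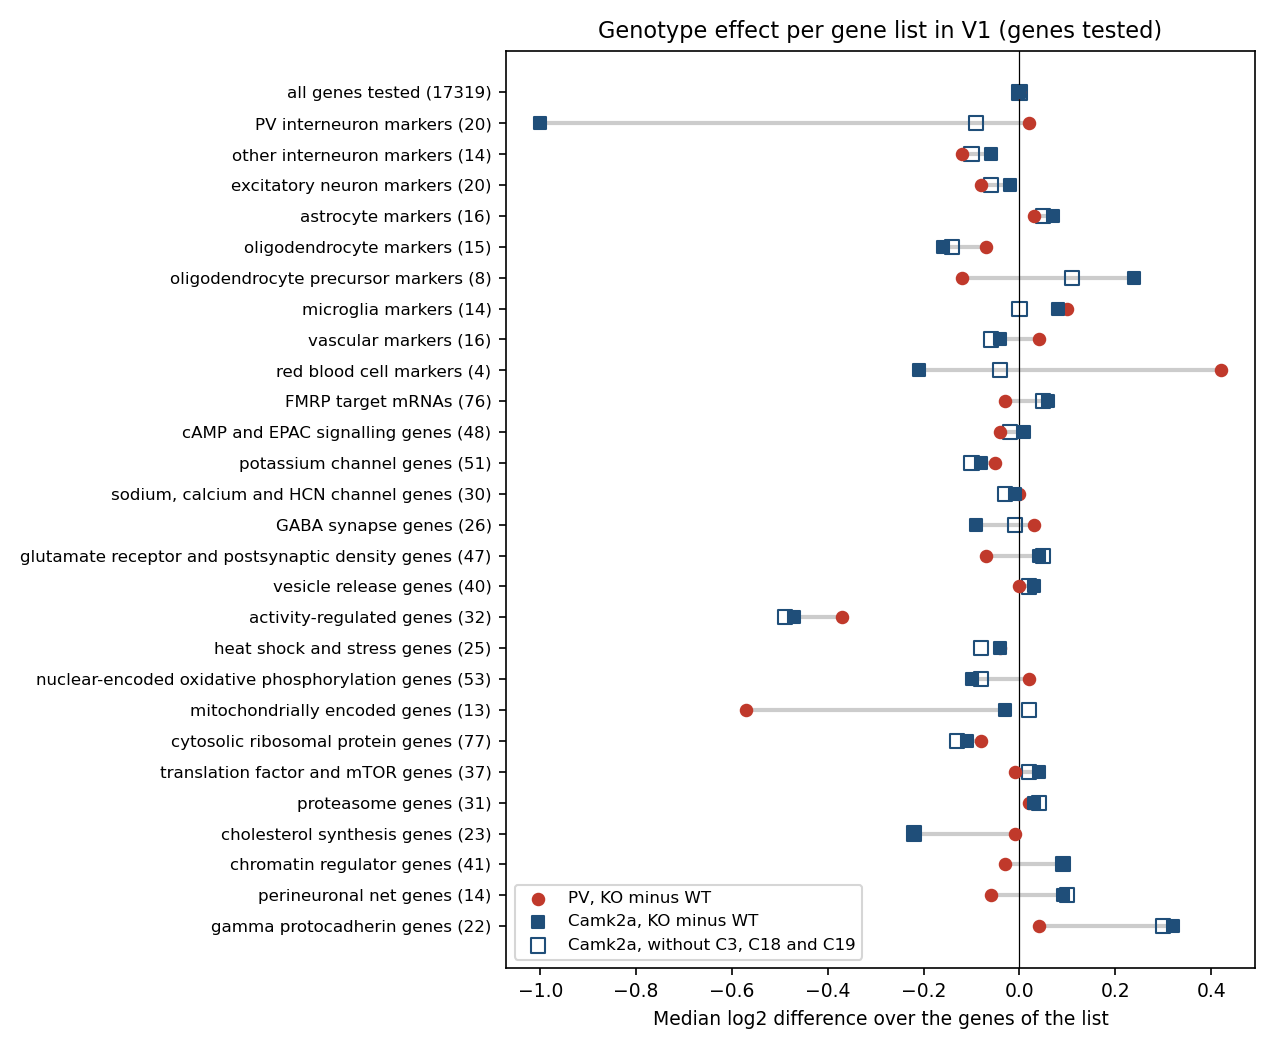
Median KO minus WT log2 effect over each gene list in V1, in PV (red circles) and Camk2a (filled squares), with the number of genes tested in brackets. Open squares give the Camk2a median without C3, C18 and C19. PV interneuron markers stand at -1.0 in Camk2a with all libraries and at -0.09 without these 3, while cholesterol synthesis genes stand at -0.22 both times.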

How the data were processed

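The authors deposited a table of estimated counts per gene without normalization, in which 71.1% of values were not whole. STAR, Salmon, limma and mm10 are named in the submitters' processing notes, with no role or version stated there. Identifiers were named from GENCODE M21 (17614 of 17634 genes, 20 without a symbol), which also gave coordinates. Estimated counts were rounded, filtered with filterByExpr, scaled with TMM and fitted with edgeR 4.0.16 (R 4.3.3, robust glmQLFit and glmQLFTest, Benjamini-Hochberg over all genes) in 1 model of 4 groups with labelled sex. Adjusted p-values come from this test except where a sentence names a different tool. Alternatives used DESeq2 1.42.0, limma 3.58.1 voom, other scaling, no filter, no sex term, marker scores and left-out libraries. CPM values are rounded counts over library totals.

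No pair of libraries within a group agreed within counting noise (smallest chi-square per degree of freedom 7.01). All V1 libraries carry the Batch 1 label. The members and gene lists were chosen with earlier results of these data known. Genes named by rule were Fmr1, Rapgef4, up to 12 called genes per direction with the largest difference and a mean of at least 5 CPM, up to 2 called members per list and direction, and genes with the smallest p filling a direction to 6. Gpx8 and Chil1 were called at lower levels and are named outside the rule, as are further genes named after their values were seen. Some results, including 1 of the called genes, are not reported here. Of listed genes, Chat, Alas2, Sncg and Cldn14 were not tested. Counts were simulated for 17238 genes, with 50 genes changed at each size, in PV KO only and at a mean of at least 5 CPM. The difference test called 90% and 92% of genes changed by -1 and 1, and 64% and 70% of those changed by -0.5 and 0.5. Of its 163 calls, 5 were false. With 163 calls against 16 in the data, its unadjusted p threshold was looser, so these rates may be too high for the data. P-values within V1 or within S1 measure the spread between animals. The edgeR test of V1 against S1 treated libraries of the same animal as independent.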

Additional observations from a re-analysis of the deposited data

Results flagged for a closer look

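In 80 sets of a gene and a group, 3 libraries stood apart from the rest of their group, where chance gives about 1 in 20 (4.0). Rapgef4 stood at 249 CPM in the Camk2a WT library C24 (others 185 to 209 CPM). Dhdh stood at 15.1 CPM in the PV WT library P1 (others 11.3 to 13.1 CPM). Ltbp3 stood at 49.8 CPM in the PV WT library P22 (others 61.4 to 72.3 CPM), which also lay with S1 on the area score.

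The genotype effect of 16 genes differed between the classes by the test of the difference itself. PV effect minus Camk2a effect was 1.27 for Fmr1, 1.31 for Ccn4, 1.32 for Hyi, 0.59 for Dhdh, 1.48 for Alox8 and 1.92 for Gpx8. It was 0.58 for Ltbp3, 0.34 for Wwc2, 0.36 for Galnt11, 0.42 for Inpp5f, 0.60 for Ankrd29 and 1.55 for Chil1. For Emsy, Wdr81 and Sphk2 it was -0.64, -0.45 and -0.38.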

How the results depend on the processing

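For the difference between the classes, 16 genes were called, 13 above and 3 below 0. DESeq2 called 58 (32 above, 26 below), limma-voom with quality weights 69 (43 and 26) and the fit with a glial score 49 (37 and 12). Without the libraries against the labelled sex 9 were called (7 above), and without C3, C18 and C19 7 (7 above, 0 below). The count below 0 was 1 without the sex term and 5 with the score of the other class. With each library left out it was 7 to 32 in all, 7 to 23 above and 0 to 12 below. The PV effect gave 71 genes with DESeq2, 65 with limma-voom, 11 without P9, P22 and P24, 57 with the glial score, 39 with the score of the other class and 8 to 38 with each library left out. The Camk2a effect gave 753, 1213, 138 without the libraries against the labelled sex, 269 without C3, C18 and C19, 867 with the glial score, 222 fitted alone and 206 to 745 with each library left out. The S1 count was 338 with limma-voom 313 without its Batch 2 library, 78 without animals P9, P22 and P24, 14 without P11, C16 and C23 and 93 without C3, C18 and C19, against 143 (the last 3 refits were chosen after seeing the data). The causes were not tested.

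For named genes, 166 of 200 values under other settings kept sign and side of the threshold, 25 no longer passed, 8 passed newly and 1 reversed. With each library left out these were 562, 103, 8 and 7 of 680. The reversals were all of Rapgef4, at 0.02 without C3, C18 and C19, and from 0.00 to 0.02 without P5, P6, P22, C1, C3, C14 or C20, within a range of -0.06 to 0.02 over all libraries left out, against -0.01. The refits of list medians were chosen after seeing the data, and 1181 of 1188 moved by less than the spread between libraries.

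No paired analysis was possible because each animal gave 1 V1 library and the compared groups hold different animals. At this number of animals, differences of about 0.5 were often missed in simulated data, so uncalled genes cannot be read as equal between classes.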

Other observations

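Transcript length was set against the effects as a description across genes, using the longest protein-coding transcript of each gene in GENCODE M21. Among genes with a mean of at least 5 CPM, of 5 equal groups by length, the group with the shortest transcripts (204 to 1965 bases) had a median difference of 0.06, from 0.01 in PV and -0.06 in Camk2a. The group with the longest transcripts (from 5564 bases) had a median difference of -0.05, from -0.02 in PV and 0.03 in Camk2a. Genes higher in KO Camk2a ribosomes had a median transcript of 4388 bases and those lower in KO one of 3118 bases, against 3258 bases for all genes tested with a length (83.2%). Over 5 equal groups by GC content the median difference lay between 0.04, at the lowest GC content, and -0.01, at the highest.

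Synaptic and ribosomal gene groups lay closer to the background. GABA synapse genes were above 0 in 18 of 26 (median difference 0.08, from 0.03 in PV and -0.09 in Camk2a) and glutamate receptor and postsynaptic density genes below 0 in 33 of 47 (median -0.09, from -0.07 and 0.04). Without C3, C18 and C19 these medians were 0.06 and -0.09. Cytosolic ribosomal protein genes had effects below 0 in 71 of 77 in each class, with medians of -0.08 in PV and -0.11 in Camk2a and a median difference of 0.03. No member of these lists passed the test of the difference.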
